A study of Mus musculus with 22 samples.

Results

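The 9 genes described here are Nanog, Esrrb, Tfcp2l1, Zfp42, Nr0b1, Klf2, Klf5, Tbx3 and Nr5a2, the core transcription factors of naive pluripotency in the mouse. They were taken by gene symbol alone, and all 9 were found among the 24130 genes counted in each library. RNA was sequenced from cultures of mouse embryonic fibroblasts on their way to induced pluripotent stem cells. The fibroblasts carry the OG2 transgene, a GFP reporter driven by the Oct4 promoter, were at passage P2, and came from a mixed strain, given as 1/2 of 129SVJ, 3/8 of C57B6 and 1/8 of CBA. The OSK arm received Oct4, Sox2 and Klf4 and was sampled on days 0, 1, 3, 5 and 7. In the OvSvK arm the first 2 factors carried VP16, a strong viral activation domain (Oct4-vp16 and Sox2-vp16, with Klf4), and it was sampled on days 0, 1, 2, 3 and 4. A control arm received GFP and was sampled on days 1, 3, 5 and 7. Day 0 follows 2 days of transfection in each of these arms. In 3 further OSK arms, each sampled on days 3 and 7, the growth factor bFGF, vitamin C (labelled vc) or the GSK3 inhibitors (CHIR-99021 and LiCl) were left out. That makes 20 libraries, with 1 library for each arm and day. An embryonic stem cell library (mESC, the same OG2 strain, passage P5) and a fibroblast library (MEF), both labelled as re-analysed, enter only through the authors' series table. Levels are given as TPM, read counts scaled for transcript length and library size, which allows genes of different length to be compared. An interval beside a TPM is the exact 95% Poisson interval of the read count behind it, and it covers counting error only.

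Naive pluripotency is the state of the preimplantation epiblast and of mouse embryonic stem cells. It is held by a small network of transcription factors that bind many of the same enhancers as Oct4 and Sox2 and activate one another. Tfcp2l1 is known as a target of LIF and STAT3, and Esrrb as a target that GSK3 inhibition releases from the repressor Tcf7l1. Klf2 and Klf5 belong to the same family as the introduced Klf4. In reprogramming fibroblasts the endogenous factors have to be switched on from silent or low loci, and Nanog and Esrrb are known as late genes of that process.

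The libraries held between 7872277 and 20720718 counts. The introduced factors set the arms apart as labelled. Pou5f1, which encodes Oct4, stood at 1104 to 2029 TPM in OvSvK, 96.1 to 494 TPM in OSK and at most 0.15 TPM in GFP, while Sox2 stood at 103 to 202 TPM, 192 to 500.5 TPM and at most 0.56 TPM. These reads cannot be assigned to the introduced or the endogenous copy. The libraries also fell into 2 sets by the share of Rpsa reads assigned to the processed pseudogene Rpsa-ps10. That share was 3.32% to 7.78% in OSK on days 1 to 7 and in GFP, and 0.125% to 0.478% in OvSvK, in OSK on day 0 and in all 6 omission libraries. Arm and set cannot be told apart where OvSvK or an omission arm is compared with GFP or with OSK after day 0. Comparisons of OSK after day 0 with GFP, and of one omission arm with another, lie within a set. The 10 fibroblast markers, all detected in every library, summed to 8667 TPM in OvSvK on day 0 and 2243 TPM on day 4, and to 7565 TPM in OSK on day 1 and 1372 TPM on day 7. In GFP the same sum was 6654 to 13073 TPM. In a bulk library a low level may mean few cells with the RNA or little RNA in each cell, and the 2 cannot be told apart.

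Promoter sequences of RefSeq (GRCm38.p6, 250 bases before to 50 after a start site) were found for 7 of the 9 genes, in 10 windows. Klf5 and Tbx3 had no entry. The 3 windows below are shown because these genes stand for 3 different courses: Nanog appeared late in OSK, Zfp42 appeared step by step, and Tfcp2l1 appeared early. Capitals mark matches to the octamer ATGCAAAT or its core ATGCAAA, to the Sox motif CATTGT and to the KLF motif GGGNGTGG, read on both strands. Every octamer also holds the core.

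Nanog, chr6:122707239-122707538, plus strand: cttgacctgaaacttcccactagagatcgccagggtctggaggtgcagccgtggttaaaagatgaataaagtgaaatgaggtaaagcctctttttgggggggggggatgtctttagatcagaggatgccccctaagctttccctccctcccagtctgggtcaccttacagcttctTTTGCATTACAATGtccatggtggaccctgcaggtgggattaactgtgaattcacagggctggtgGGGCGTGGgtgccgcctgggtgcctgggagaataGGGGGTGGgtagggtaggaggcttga

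Zfp42, chr8:43306960-43307259, minus strand: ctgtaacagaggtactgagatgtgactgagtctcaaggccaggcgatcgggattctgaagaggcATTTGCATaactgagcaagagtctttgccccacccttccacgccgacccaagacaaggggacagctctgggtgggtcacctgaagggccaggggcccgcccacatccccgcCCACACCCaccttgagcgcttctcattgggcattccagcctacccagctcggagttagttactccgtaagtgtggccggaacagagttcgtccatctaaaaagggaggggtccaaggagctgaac

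Tfcp2l1, chr1:118627695-118627994, plus strand: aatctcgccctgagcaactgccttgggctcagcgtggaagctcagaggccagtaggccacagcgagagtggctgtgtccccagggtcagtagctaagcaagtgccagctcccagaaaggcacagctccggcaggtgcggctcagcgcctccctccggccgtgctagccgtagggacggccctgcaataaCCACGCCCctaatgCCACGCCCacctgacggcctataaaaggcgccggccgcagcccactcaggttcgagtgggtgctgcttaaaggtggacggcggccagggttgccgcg

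In the Nanog window the core octamer and the Sox motif lie side by side, 75 bases before the start site, as a match to the composite of both (Sox motif, 1 free base, core octamer). Of 32851 promoter windows, 2 held that composite, and both belong to Nanog, at start sites close enough for the windows to overlap. Zfp42 held the full octamer 186 bases before its start, which 1.74% of all windows hold, and the core octamer is held by 4.63%. The KLF motif was present in a window of 4 of the 7 genes (Nanog, Zfp42, Tfcp2l1 and Nr5a2) against 17.6% of all windows, and the Tfcp2l1 window holds it at 61 and again at 47 bases before the start. The Sox motif was found in Nanog and in 1 of the windows of Esrrb, where it lies 32 bases after the start, against 12.6% of all windows. No window of these genes matched CAAGGTCA, the extended half-site read by Esrrb and Nr5a2 (1.56% of all windows), or the STAT motif TTCCNGGAA (1.15%). These are matches of letters in the window and not measured binding sites. The KLF and Sox motifs are counted by gene, and some genes had more than 1 window. Those counts are therefore not on the same footing as the shares of all windows.

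Nanog, the homeodomain factor that stabilises pluripotency, was near the control level at the start of both courses. In OvSvK it stood at 0.54, 2.19, 11.2, 70.4 and 179.6 TPM on days 0 to 4. In OSK it stood at 0.27, 0.24, 0.57, 2.65 and 112 TPM on days 0, 1, 3, 5 and 7. GFP libraries held 0.21 to 0.5 TPM. The OvSvK values climb at every sampled day, whereas 3 of the 5 OSK libraries overlap the GFP intervals and nearly all of the OSK signal appears between days 5 and 7, where the level was 42.3 times higher (95% interval 31.2 to 58.9).

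Esrrb, an orphan nuclear receptor that can stand in for Nanog in self-renewal, was the last to appear in OSK. OvSvK held 0.11, 0.1, 0.81, 8.87 and 59 TPM on days 0 to 4. OSK held 0.14, 0.06, 0.21, 0.56 and 25.1 TPM over its 5 days, and GFP at most 0.3 TPM. The first library whose interval lay above every GFP interval was day 3 in OvSvK and day 7 in OSK. From day 5 to day 7 of OSK the level was 44.9 times higher (27.9 to 77.5).

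Nr5a2, a nuclear receptor that can replace Oct4 in reprogramming cocktails, followed the same late course at a lower level. It stood at 0, 0.15, 5.74, 16 and 24.2 TPM in OvSvK and at 0, 0, 0.15, 1.63 and 12.7 TPM in OSK, with at most 0.15 TPM in GFP. The count of 0 on day 0 of OvSvK allows up to 0.266 TPM. Its largest single step in OvSvK was from day 1 to day 2, at 38.6-fold (14.7 to 144). For Esrrb in the same libraries the largest step is not settled. Day 1 to 2 was 8.4-fold (2.22 to 46.9) and day 2 to 3 was 10.9-fold (5.97 to 22.3).

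Zfp42, also known as Rex1 and a classical marker of the naive state, rose at every sampled step of both courses. OvSvK held 1.19, 6.34, 20.2, 42 and 78.3 TPM, and OSK held 0, 0.42, 9.08, 27.1 and 106 TPM. From day 5 to day 7 of OSK the level was 3.91 times higher (3.47 to 4.42). The GFP libraries held at most 0.22 TPM. It was above every GFP interval from day 1 in OvSvK and from day 3 in OSK, and among the 9 genes it is 1 of 2, with Tfcp2l1, that were lower on the last day of OvSvK than on the last day of OSK.

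Nr0b1, also called Dax1, is a corepressor that binds Oct4 and Nr5a2. It was not counted once in any of the 4 GFP libraries, which allows up to 0.568 TPM in the shallowest. OvSvK held 0.44, 5.86, 27.5, 43.2 and 29.6 TPM, and OSK held 0, 0.14, 3.12, 6.04 and 16.1 TPM. Nr0b1 alone among the 9 peaked before the last day of OvSvK: day 4 was 0.686 times day 3 (0.58 to 0.809).

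Tfcp2l1, a grainyhead-family factor downstream of LIF, left the GFP level on day 1 of OSK and stood far higher there on day 3 than in OvSvK. OSK held 0.04, 6.92, 197.7, 134.6 and 102.8 TPM, so that day 3 was the highest of all 20 libraries and days 5 and 7 were lower. OvSvK held 0.4, 8.66, 16.9, 32.1 and 57.2 TPM, and GFP 0.23 to 0.55 TPM. On day 3 of OSK it made up 76.6% of the summed TPM of the 9 genes, when Nanog made up 0.22%. By the last day the shares had become 24.1% and 26.3%.

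Klf2 and Klf5 were present before reprogramming advanced. Klf2 stood at 18.2, 7.96, 18, 31.3 and 43.3 TPM in OvSvK and at 21.2, 1.1, 6.4, 7.73 and 23.5 TPM in OSK, against 1.47 to 2.93 TPM in GFP. Both arms were lower on day 1 than on day 0, in OvSvK at 0.436 times (0.334 to 0.569). In OSK the day 0 library belongs to the other set, so that step cannot be told apart from the set. No GFP library of day 0 was used here. Klf5 stood at 8.56, 26.6, 37.5, 30.6 and 40 TPM in OvSvK, at 5.35, 9.46, 27.5, 24.5 and 18.2 TPM in OSK, and at 11.2, 9.43, 6.48 and 5.1 TPM in GFP from day 1 to day 7. Klf5 therefore exceeded every GFP interval from day 1 in OvSvK and from day 3 in OSK.

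Tbx3, a T-box factor that fibroblasts also express, separated the arms least. It stood at 9.96, 10.6, 12.7, 18.7 and 24.2 TPM in OvSvK, at 4.96, 10.2, 13.2, 7.7 and 9.76 TPM in OSK and at 10.3 to 15.6 TPM in GFP. No OSK library had an interval above all of GFP, and in OvSvK only day 4 did. In the GFP arm Tbx3 was the highest of the 9 genes in all 4 libraries.

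**Figure D1:**
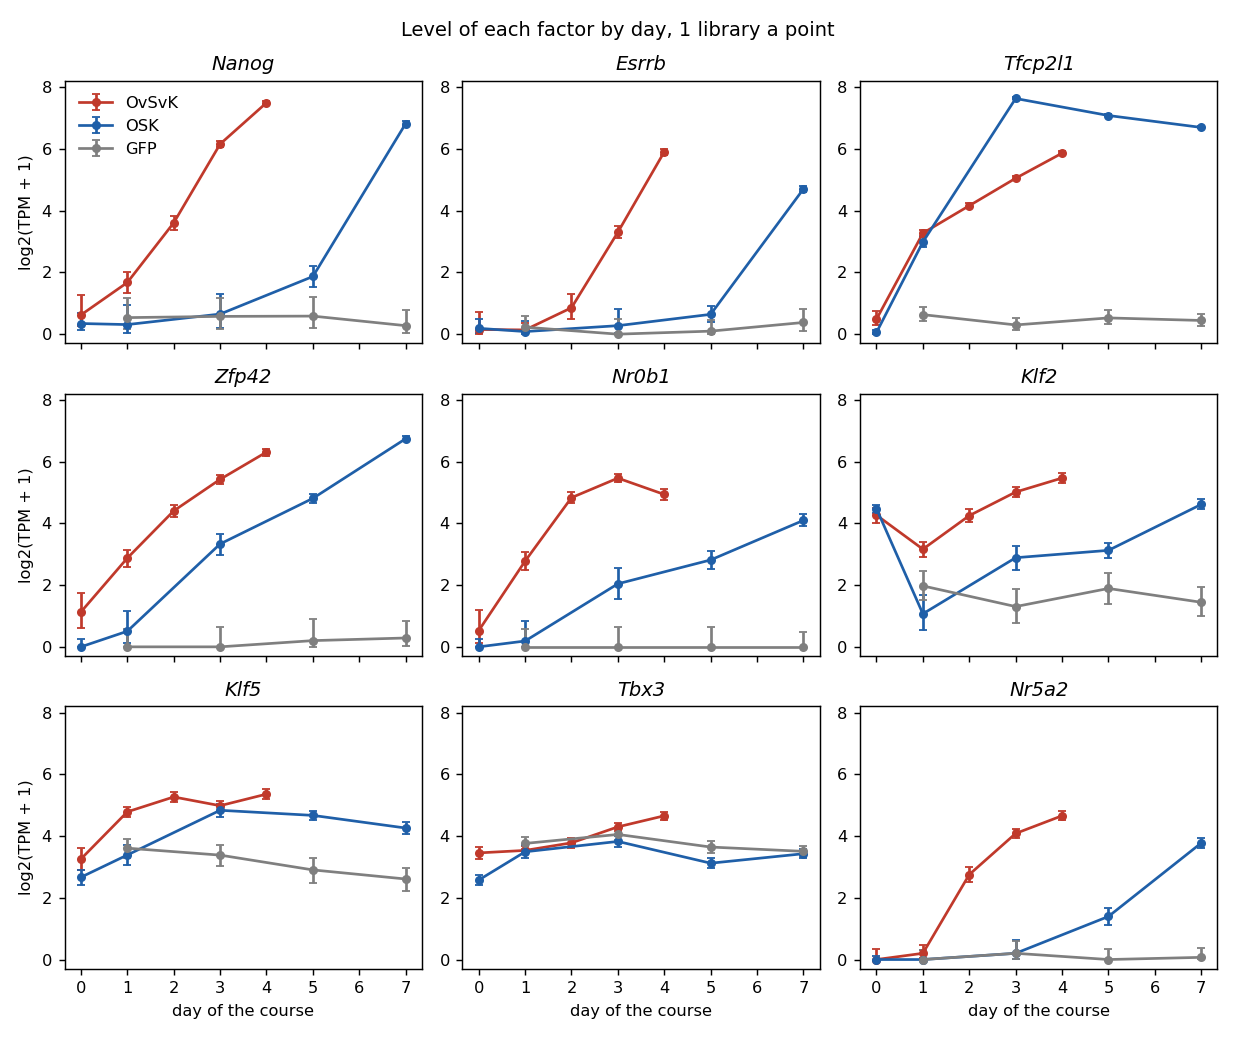
Level of each of the 9 factors by day, as log2(TPM + 1), in OvSvK (red), OSK (blue) and GFP (grey), with 1 library a point and the 95% Poisson interval of its count as the bar. Nanog, Esrrb and Nr5a2 stay near the GFP line in OSK until day 5 or 7 and leave it by day 1 to 3 in OvSvK, while Tfcp2l1 reaches 197.7 TPM on day 3 of OSK.

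The order of appearance, counted as the first day with an interval above every GFP interval, was compared between the arms. Klf2 has no such order: it was above GFP on day 0 in both arms, but both day 0 libraries belong to the other set and GFP has no day 0. On day 1 of OSK its 1.1 TPM was below all 4 GFP values, with overlapping intervals, and it was above them from day 3. OvSvK put Nanog, Tfcp2l1, Zfp42, Nr0b1 and Klf5 at day 1, Nr5a2 at day 2, Esrrb at day 3 and Tbx3 at day 4. Every OvSvK library belongs to the other set than GFP, so these first days cannot be told apart from the set. In OSK the order was Tfcp2l1 at day 1, then Zfp42, Nr0b1 and Klf5 at day 3, Nanog and Nr5a2 at day 5, and Esrrb at day 7. The 2 courses were sampled on different days, so only days 0, 1 and 3 can be matched. Ordered by TPM, Nanog ranked 7 of 9 on day 5 of OSK and 1 on day 7, and in OvSvK it ranked 7 on day 2 and 1 on day 3. On the last day of OSK, Nanog (112 TPM, 106.8 to 117.7) and Zfp42 (106 TPM, 100.4 to 112) were not separated by their intervals. The sum over the 9 genes went from 39.5 to 535.5 TPM in OvSvK and from 32 to 426.1 TPM in OSK, and lay between 18.3 and 27.9 TPM in GFP.

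**Figure D2:**
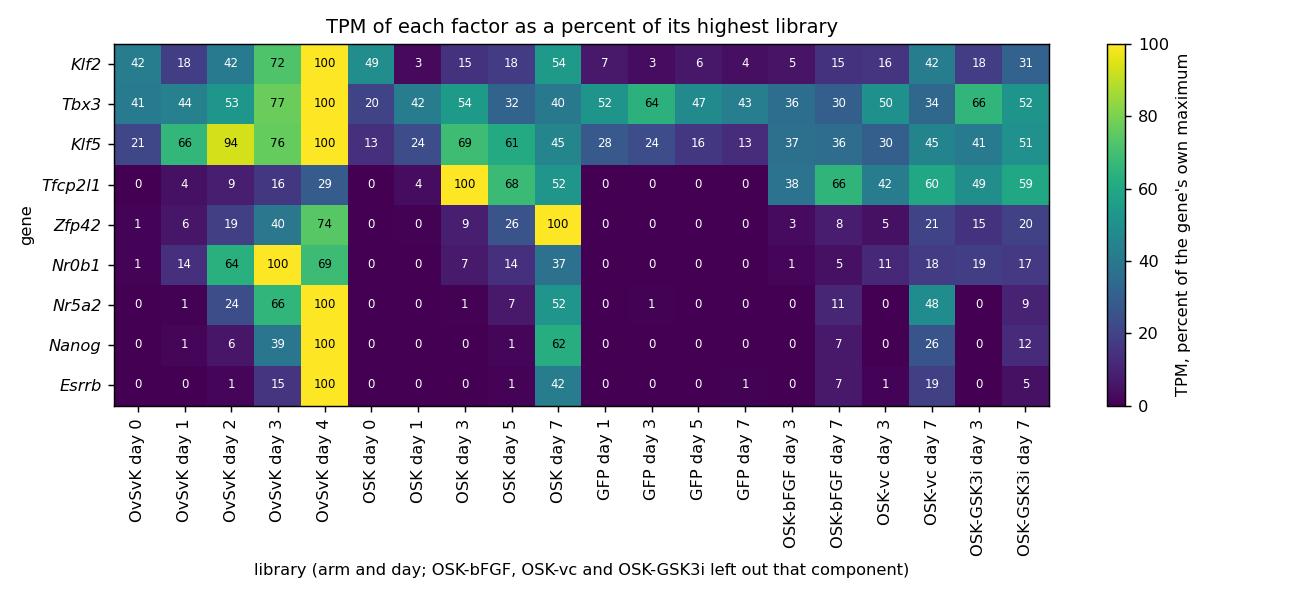
TPM of each factor (rows) in each of the 20 libraries (columns), as a percent of the highest library of that gene. OvSvK day 4 is the highest library for 6 genes (Klf2, Tbx3, Klf5, Nr5a2, Nanog and Esrrb), OSK day 7 for Zfp42, OSK day 3 for Tfcp2l1 and OvSvK day 3 for Nr0b1.

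To ask which of these courses departed from flat, a line over days was fitted in each arm for all 13848 genes that passed the filter on low counts, all 9 among them, with edgeR's quasi-likelihood test and Benjamini-Hochberg adjustment. With 1 library for each arm and day the error is the scatter around that line and not the spread between replicate cultures. In OvSvK 4 of the 9 rose, where 4.49% of all genes rose. They were Esrrb at 2.89 log2 units per day (SE 0.40, adjusted p = 0.00203), Nr5a2 at 2.16 (SE 0.39, adjusted p = 0.00731), Nanog at 2.05 (SE 0.31, adjusted p = 0.00316) and Zfp42 at 1.30 (SE 0.23, adjusted p = 0.00578). Nr0b1 had a slope of 1.22 (SE 0.41) and Tfcp2l1 of 1.26 (SE 0.59), with adjusted p of 0.0935 and 0.209, and Nr0b1 passed by DESeq2 and limma. Klf2, Klf5 and Tbx3 had slopes between 0.17 and 0.31 and did not pass. Without the day 0 library of OvSvK, Zfp42 and Nr5a2 no longer passed, and 189 genes in all did instead of 1426.

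In OSK 5 of the 9 rose, where 21.5% of all genes rose. The slope of Nr5a2 was 1.60 log2 units (SE 0.23, adjusted p = 0.000851), that of Esrrb 1.34 (SE 0.20, adjusted p = 0.000867), that of Nanog 1.30 (SE 0.17, adjusted p = 0.000508), that of Zfp42 1.27 (SE 0.14, adjusted p = 0.000323) and that of Nr0b1 0.98 (SE 0.21, adjusted p = 0.00657), all by edgeR. A straight line describes these genes unequally, since Zfp42 climbed at each step and Nanog and Esrrb mostly at the last. Tfcp2l1 had a slope of 0.90 (SE 0.49, adjusted p = 0.15), with its maximum in the middle of the course, and passed by DESeq2 and limma. Klf5 and Tbx3 had slopes of 0.16 and 0.00. Klf2 had a slope of -0.06 (SE 0.16), which turned to 0.62 and passed without the day 0 library, the only OSK library of the second set. Without it Nanog had 1.92 and Esrrb 2.00, and the other 3 called genes passed as well. Without the day 7 library Nanog had a slope of 0.56 and still passed, Esrrb was not tested because its counts no longer passed the filter, and Tfcp2l1 (1.91) and Klf5 (0.30) passed.

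**Figure D3:**
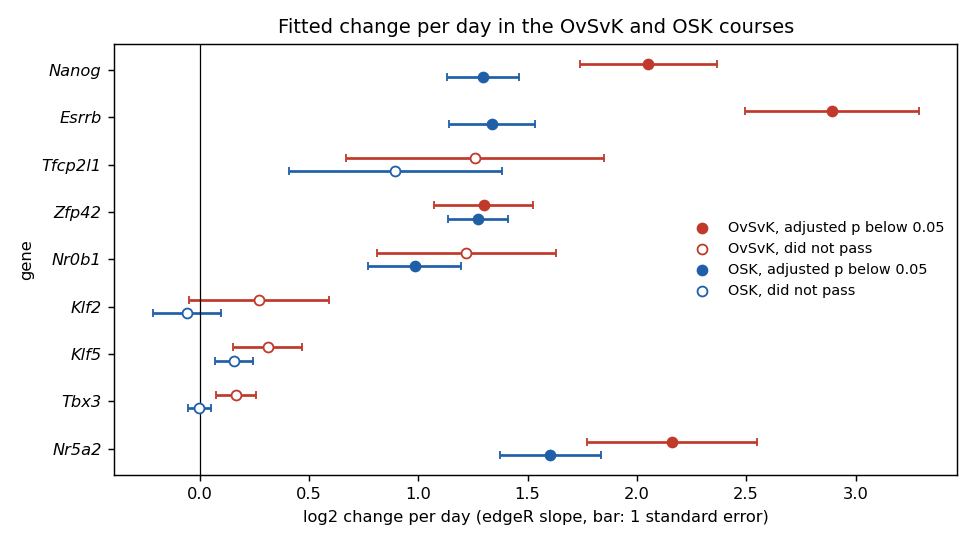
Fitted log2 change per day of each factor in OvSvK (red) and OSK (blue), with 1 standard error as the bar. Filled points passed an adjusted p of 0.05: 4 genes in OvSvK and 5 in OSK, with Esrrb in OvSvK the steepest at 2.89.

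The difference of the slopes, OvSvK minus OSK, was tested in the same fit. It passed for none of the 9 genes, and for 0% of all genes by edgeR, with 1681 genes at an unadjusted p below 0.05. DESeq2 passed 402 genes and limma 129, again none of them among the 9. Esrrb had the largest difference, 1.56 (SE 0.54, adjusted p = 0.288), with 2 SE either side reaching from 0.48 to 2.63. Nanog followed with 0.76 (SE 0.37, adjusted p = 0.46). Without OSK on day 0, the OSK library of the other set, the difference was 0.96 for Esrrb, 0.96 for Tfcp2l1 (0.36 with all libraries) and 0.16 for Nanog. Without OSK on day 7 it was 1.49 for Nanog and -0.65 for Tfcp2l1, none of them past the threshold. For Zfp42 the difference was 0.03 (SE 0.34), with an interval of -0.66 to 0.71.

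Levels on matched days were then compared as 2 libraries each, with no test. A gene was counted when it reached 5 TPM in either library and differed 2-fold. On day 1, 4 of the 6 genes that reached 5 TPM were higher in OvSvK (17.7% of all genes were): Zfp42, Nr0b1, Klf2 and Klf5. Zfp42, Nr0b1 and Klf2 reached 5 TPM in OvSvK alone, so for them only a call of higher was possible. On day 3, 6 of 9 were higher in OvSvK (13.7% of all genes). Of these, Nanog, Nr5a2, Esrrb and Nr0b1 reached 5 TPM in OvSvK alone, with the same limit. The ratio was 125 for Nanog (48.6 to 459.7), 104 for Nr5a2 (28.6 to 865), 42.4 for Esrrb (11.6 to 352), 13.9 for Nr0b1, 4.89 for Klf2 and 4.63 for Zfp42. Tfcp2l1 alone was lower, at 0.162 times OSK (0.154 to 0.172), where 8.57% of all genes were lower. Pou5f1 was 9.95 times higher in OvSvK on the same day (9.15 to 10.8), and its part in these ratios was not tested.

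At the last day of each course, day 4 against day 7, 3 of 9 genes were more than 2-fold higher in OvSvK (14.6% of all genes): Tbx3 at 2.48-fold, Esrrb at 2.36-fold and Klf5 at 2.21-fold. Nr5a2, Klf2, Nr0b1 and Nanog were 1.60 to 1.91 times higher. Zfp42 stood at 0.738 times the OSK level (0.669 to 0.814) and Tfcp2l1 at 0.554 times (0.528 to 0.581).

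OSK was then set against GFP on days 1, 3, 5 and 7, within 1 library set and with day as a block. Only 4 of the 9 genes (Tfcp2l1, Klf2, Klf5 and Tbx3) passed the filter on low counts. Tfcp2l1 was higher by 7.41 log2 units (SE 1.17, edgeR adjusted p = 0.00913), where 16.8% of the 12680 genes tested were higher. Klf5 (1.11, SE 0.44, adjusted p = 0.106), Klf2 (1.47, SE 0.88, adjusted p = 0.248) and Tbx3 (-0.29, SE 0.18, adjusted p = 0.246) did not pass. Leaving out day 1 let Klf2 (2.30) and Klf5 (1.56) pass, and leaving out day 5 ended the call of Tfcp2l1 (adjusted p = 0.0579). Without day 1, Zfp42 (8.3) and Nr0b1 (9.32) also came through the filter and passed. They came through by their OSK counts, since both were at or near 0 in GFP, so only a call of higher was possible. With no filter on low counts Zfp42 (8.23, SE 0.46, adjusted p = 0.000194) and Nr0b1 (8.82, SE 0.98, adjusted p = 0.00957) also passed in edgeR. DESeq2 passed both as well, and with them Esrrb (3.07, SE 1.25, adjusted p = 0.0403) and Nr5a2 (3.86, SE 1.51, adjusted p = 0.0317). In GFP these genes were at or near 0, which makes the size of these values depend on the fit. On day 7 the ratio to GFP was 563 for Nanog (156 to 4653), 480 for Zfp42 (133 to 3965) and 289.7 for Tfcp2l1. It was 0.942 for Tbx3 (0.797 to 1.11) and at least 48.8 for Nr0b1, whose GFP count of 0 was set to 3.

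The authors' series table places these levels beside embryonic stem cells. Its scores have the same median (374) and maximum (58542) in all 22 columns, so they are scaled to a common distribution, and the mESC and MEF libraries were processed with another genome build. In mESC the score was 18816 for Tfcp2l1, 7770 for Nanog, 6009 for Esrrb, 3403 for Klf2, 2700 for Zfp42, 2386 for Tbx3, 1114 for Klf5, 948 for Nr0b1 and 728 for Nr5a2. In MEF it was at most 16 for the 6 genes other than Tbx3 (466), Klf2 (226) and Klf5 (183). At the last day all 9 genes were still below mESC in both courses. OvSvK on day 4 ranged from 12.7% of the mESC score (Tfcp2l1) to 42% (Nr5a2), and OSK on day 7 from 10.2% (Esrrb) to 30.1% (Zfp42). Nanog reached 23.6% in OvSvK and 15.3% in OSK. Earlier days had stood higher in OSK for Tfcp2l1 (48.7% on day 3), Klf5 (16.9% on day 3 against 11.7% on day 7) and Tbx3 (14.3% against 11.4%), and in OvSvK for Nr0b1 (33.8% on day 3). Klf5 and Tbx3 scored below MEF on day 7 of OSK (130 and 271), as Tbx3 did on day 3 (341). Their percent of mESC there is therefore not a rise over fibroblasts. On day 4 of OvSvK both scored above MEF (274 and 534). The mESC library and the MEF library are each a single one, so no error can be given.

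**Figure D4:**
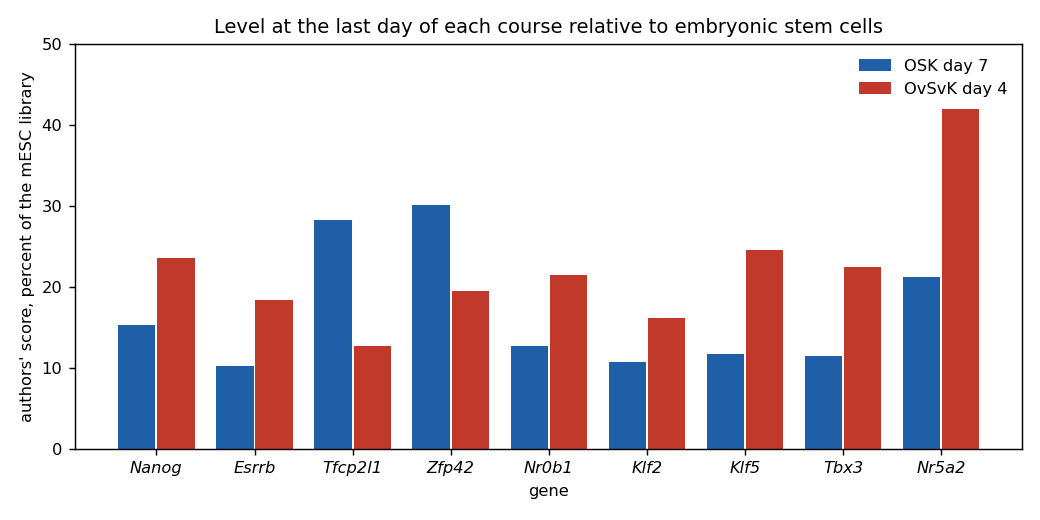
The authors' score of each factor on the last day of each course as a percent of the single mESC library, for OSK day 7 (blue) and OvSvK day 4 (red). All bars are below 50, and OvSvK is above OSK for every gene except Tfcp2l1 and Zfp42. For Klf5 and Tbx3 the OSK score was below that of the MEF library, which is not drawn.

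The omission arms ask how the factors depend on bFGF, vitamin C and GSK3 inhibition. Values on day 3 differed little for the late genes: Nanog, Esrrb and Nr5a2 were all at or below 0.57 TPM in OSK and in the 3 omission arms. None of these libraries held more than 5 counts of any of the 3 genes. For them the fits below therefore rest almost wholly on day 7, with 1 library an arm. On day 7 Nanog stood at 112 TPM in OSK, 46.4 TPM without vitamin C, 21.6 TPM without GSK3 inhibitors and 12.2 TPM without bFGF. Esrrb stood at 25.1, 11.2, 2.72 and 4.05 TPM in the same order, and Nr5a2 at 12.7, 11.8, 2.29 and 2.6 TPM. All 3 genes were above every GFP interval on day 7 in each omission arm. Tfcp2l1 did not follow them: on day 7 it stood at 102.8 TPM in OSK and at 117.6 to 129.7 TPM in the omission arms, while on day 3 it stood at 197.7 TPM in OSK and 75.5 to 97.8 TPM in the others.

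Zfp42 stood on day 7 at 106 TPM in OSK, 21.8 TPM without vitamin C, 20.7 TPM without GSK3 inhibitors and 8.3 TPM without bFGF. On day 3 it stood at 9.08, 4.85, 15.4 and 2.96 TPM, so the arm without GSK3 inhibitors was the highest of the 4 on day 3. Nr0b1 stood at 3.12, 4.82, 8 and 0.54 TPM on day 3 and at 16.1, 7.69, 7.14 and 2 TPM on day 7, in the order OSK, without vitamin C, without GSK3 inhibitors, without bFGF. Klf2 stood at 6.4, 6.74, 7.92 and 2.35 TPM on day 3 and at 23.5, 18.2, 13.6 and 6.34 TPM on day 7. Klf5 and Tbx3 stayed between 12.2 and 27.5 TPM and between 7.29 and 15.9 TPM. The arm without bFGF was the lowest of the 4 on both days for Zfp42, Nr0b1, Klf2 and Tbx3.

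**Figure D5:**
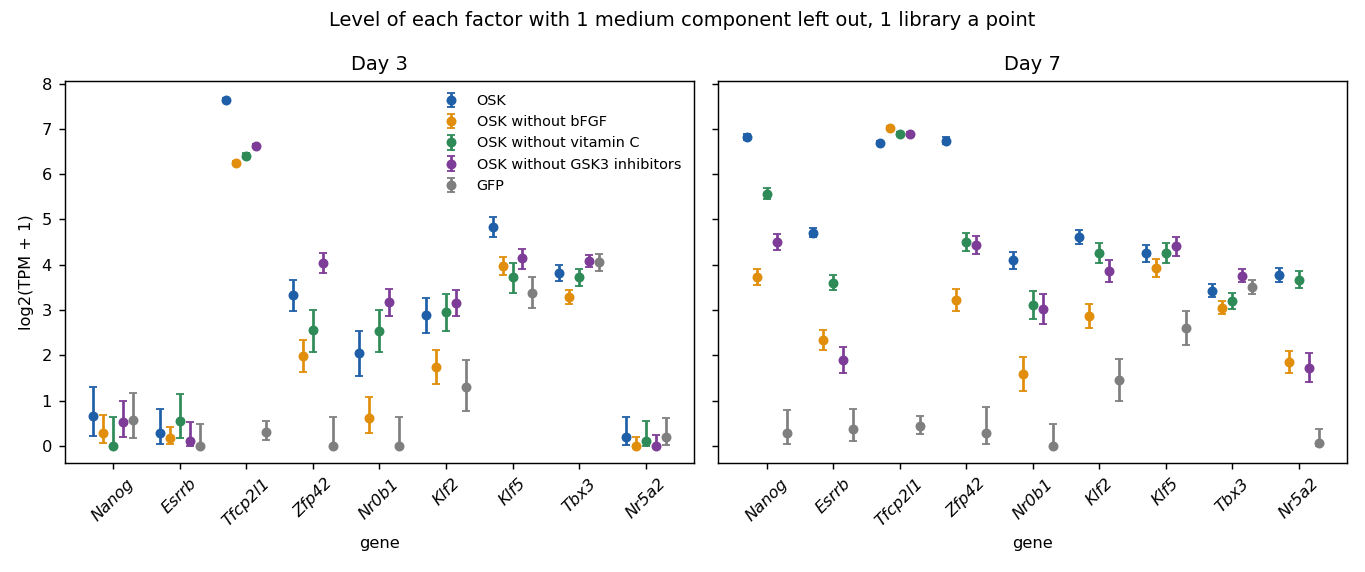
Level of each factor as log2(TPM + 1) on day 3 (left) and day 7 (right) in OSK, in the 3 omission arms and in GFP, with 1 library a point and the 95% Poisson interval of its count as the bar. On day 7 OSK is the highest point for Nanog, Esrrb, Zfp42, Nr0b1, Klf2 and Nr5a2, and Tfcp2l1 lies close together in the 4 OSK arms.

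Without bFGF 6 of the 9 genes were lower than in OSK, where 7.77% of all 14191 genes tested were lower (edgeR, arm with day as a block). Nanog fell by 3.04 log2 units (SE 0.52, adjusted p = 0.01), Zfp42 by 2.96 (SE 0.72, adjusted p = 0.0408), Nr0b1 by 2.86 (SE 0.62, adjusted p = 0.0196), Esrrb by 2.60 (SE 0.53, adjusted p = 0.0144), Nr5a2 by 2.49 (SE 0.49, adjusted p = 0.0128) and Klf2 by 1.70 (SE 0.36, adjusted p = 0.0167). Nanog, Esrrb and Nr5a2 had at most 5 counts in each day 3 library of the fit, so their values rest on 1 day 7 library an arm. Nanog did not pass by DESeq2, and Nanog, Esrrb and Nr5a2 did not pass by limma. Zfp42 did not pass with no filter, with the GC trend removed or without either library of the vitamin C arm. Tfcp2l1, Klf5 and Tbx3 differed by -0.53, -0.60 and -0.46 and did not pass. By day 7 alone the same 6 genes were more than 2-fold lower, where 7.56% of all genes were. Esrrb, Nr0b1 and Nr5a2 reached 5 TPM in OSK alone on that day, so for them only a call of lower was possible. No gene of the 9 passed without the day 3 or without the day 7 library of the bFGF arm, and without OSK on day 7 only Tfcp2l1 did (-1.09). Fibroblast markers moved with the result: 6 of 10 were higher without bFGF (4.71% of all genes were higher), and their sum on day 7 was 4374 TPM against 1372 TPM. Pou5f1 stood at 154.8 TPM on day 7 without bFGF and at 494 TPM in OSK. Sox2 and Klf4 went the other way on that day: Sox2 stood at 343.7 TPM without bFGF and 222.3 TPM in OSK, and Klf4 at 649.7 and 304.4 TPM. The part of the markers or of the introduced factors in the result was not tested, and the arm and the library set cannot be told apart.

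Without GSK3 inhibitors 3 of the 9 genes were lower than in OSK, where 13.3% of all genes were lower. Esrrb fell by 3.09 log2 units (SE 0.54, edgeR adjusted p = 0.00459), Nr5a2 by 2.65 (SE 0.50, adjusted p = 0.00632) and Nanog by 2.13 (SE 0.50, adjusted p = 0.0169). These 3 genes had at most 5 counts in each day 3 library of the fit, so their values rest on 1 day 7 library an arm. Nanog did not pass by DESeq2 or with the GC trend removed, and none of the 3 passed by limma. Zfp42 had -1.03 (SE 0.69), and the remaining 5 genes lay between -0.50 and 0.23. On day 7 alone 5 genes were more than 2-fold lower, where 12.4% of all genes were. They were Esrrb, Nr5a2, Nanog, Zfp42 at 0.195 times OSK and Nr0b1 at 0.443 times. Esrrb and Nr5a2 reached 5 TPM in OSK on that day but not without GSK3 inhibitors, so for them only a call of lower was possible. None of the 9 passed without the day 7 library of this arm, and Tfcp2l1 alone (-1.05) without OSK on day 7. The sum of the fibroblast markers was 3886 TPM on day 7, with 5 of 10 markers higher in the fit (9.97% of all genes were), and Pou5f1 stood at 173.4 TPM. Sox2 and Klf4 were higher than in OSK on that day, at 593.2 against 222.3 TPM and at 840 against 304.4 TPM. The part of the markers or of the introduced factors in the result was not tested.

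Without vitamin C none of the 9 genes passed against OSK by edgeR, where 0.254% of all genes were lower. Nanog (-1.41, SE 0.47, adjusted p = 0.269) and Zfp42 (-1.98, SE 0.69, adjusted p = 0.311) had unadjusted p below 0.05, and DESeq2 passed Zfp42. The interval of 2 SE reached from -2.34 to -0.47 for Nanog and from -3.35 to -0.61 for Zfp42, so the data do not show that the arms were alike. On day 7 alone Nanog, Esrrb, Zfp42 and Nr0b1 were more than 2-fold lower (2.51% of all genes were), from 0.206 times OSK for Zfp42 to 0.476 times for Nr0b1, while Nr5a2 was at 0.925 times (0.775 to 1.1). Without OSK on day 3, Nanog (-1.51), Esrrb (-1.39) and Zfp42 (-2.78) passed, and without OSK on day 7 Tfcp2l1 did (-1.23).

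Comparisons between the omission arms lie within 1 library set. Nr0b1 was higher without GSK3 inhibitors than without bFGF, by 2.77 (SE 0.63, edgeR adjusted p = 0.0471), the only one of the 9 that passed (1.67% of all genes were higher). Against the arm without bFGF, the arm without vitamin C had higher Nr5a2 (2.14, SE 0.48, adjusted p = 0.0263) and Klf2 (1.39, SE 0.36, adjusted p = 0.0465), where 5.02% of all genes were higher. Between the arms without GSK3 inhibitors and without vitamin C, Nr5a2 (-2.29, SE 0.50, adjusted p = 0.0134) and Esrrb (-2.06, SE 0.55, adjusted p = 0.0323) were lower without GSK3 inhibitors, where 9.29% of all genes were lower. On day 7 that is 41 counts of Nr5a2 against 216, and 55 counts of Esrrb against 236. Each of these calls was lost without some single library: for Nr0b1 any of the 4 libraries compared, for Klf2 and Nr5a2 against bFGF likewise, and for Esrrb without GSK3 inhibitors on day 3 or 7 or without vitamin C on day 7. Nr5a2 kept its call between the arms without GSK3 inhibitors and without vitamin C when the day 3 library of either was left out, and lost it without either day 7 library. Klf2 was also lost without the day 7 library of the GSK3 inhibitor arm. Nr0b1 did not pass with DESeq2 size factors, by limma or with the GC trend removed. The 2 calls against bFGF did not pass by limma or with the GC trend removed, and the 2 against vitamin C did not pass by limma.

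Genes of the signalling inputs were read beside the 9 factors from lists of names. Among 10 genes of the WNT and GSK3 branch, 5 were lower (13.3% of all genes were) and 1 higher (9.97% were) without GSK3 inhibitors against OSK. The 3 with the smallest p that fell were Cdx1 (-8.85, SE 1.07), Axin2 (-2.85, SE 0.40, a feedback inhibitor) and Tcf7 (-1.52, SE 0.27). The one that rose was Tcf7l1 (1.19, SE 0.23), the repressor of this branch. Tcf7l1 was also above OSK in the other omission arms. On day 7 it stood at 36.9 TPM in OSK, 55.3 TPM without bFGF, 56.8 TPM without vitamin C and 100.2 TPM without GSK3 inhibitors. The list's median was -1.25, against 0.01 for all genes tested. Cdx1 was listed at 0 on both days without GSK3 inhibitors, so its value depends on the fit. Against the arm without bFGF, within 1 library set, 4 of the 10 were lower (1.41% of all genes were) and 0 higher (1.67% were). Among the lower ones were Tcf7 at -2.56 (SE 0.28) and Axin2 at -3.73 (SE 0.41). Of 8 FGF and ERK feedback genes, 1 was higher without bFGF (4.71% of all genes were), Egr1 (2.44, SE 0.55), and the median was 0.16. Of 8 LIF and STAT3 genes, the list's median was 0.36 without bFGF, -0.16 without vitamin C and 0.56 without GSK3 inhibitors. Klf4, also an introduced factor, was the only 1 of the 8 higher without bFGF (1.15, SE 0.22, where 4.71% of all genes were higher). Without GSK3 inhibitors 2 of the 8 were higher (9.97% of all genes were). They were Klf4 (1.44, SE 0.22) and Socs3 (1.21, SE 0.22), a feedback inhibitor of the pathway. Lifr, a receptor subunit of LIF, was lower in all 3 omission arms against OSK, by -1.10, -1.19 and -1.13 in the order bFGF, vitamin C and GSK3 inhibitors (SE 0.20 in each). In the same order 7.77%, 0.254% and 13.3% of all genes were lower. All comparisons with OSK here share the OSK libraries, and in them arm and library set cannot be told apart.

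Of 20 other genes of the naive network, 14 were tested over the courses, 11 rose in OvSvK (4.49% of all genes did) and 12 in OSK (21.5% did), with medians of 1.25 and 1.07 log2 units per day against 0 and -0.01 for all genes. Tdgf1 (4.22 and 1.87), Lin28a (2.73 and 2.78) and Gbx2 (2.01 and 1.15) had the smallest p in both arms. Lin28a was at 0 TPM in OSK up to day 5 and at 2.65 TPM on day 7, against 72.7 TPM on day 4 of OvSvK. Tdgf1 was at 0 TPM in OvSvK up to day 2 and at 4.99 TPM on day 3. The size of slopes that start from 0 depends on the fit. Over the same fits 6 fibroblast markers of 10 fell in OvSvK (5.81% of all genes fell) and 7 in OSK (24% fell). Of 12 formative and primed genes, 6 were tested, and 2 rose in OvSvK and 4 in OSK, against the same 4.49% and 21.5% of all genes, led by the DNA methyltransferase gene Dnmt3b (1.54, SE 0.17, and 0.45, SE 0.09). Of 19 paralogs of the 9 factors, 16 were tested, and none rose in OvSvK while 2 fell (Klf7 and Tbx5; 5.81% of all genes fell). In OSK 3 paralogs rose (Klf15, Yy1 and Yy2) and 4 fell (Tbx5, Esrra, Klf7 and Klf4, the last an introduced factor), shares near the 21.5% and 24% of all genes. Against OSK, 5 of 17 tested naive network genes were lower without bFGF (7.77% of all genes were), 8 without GSK3 inhibitors (13.3%) and 1, Dppa5a, without vitamin C (0.254%), with medians of -0.97, -0.97 and -1.04 and 0.01 for all genes. Dppa5a (-2.99 without bFGF, -5.32 without GSK3 inhibitors) and Sall4 (-1.99 and -3.33) had the smallest p in the first 2 of these arms, beside Prdm14 (-4.08) without bFGF and Gbx2 (-3.72) without GSK3 inhibitors.

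The 9 genes varied together unevenly across the 20 libraries, which share arms, days and scaling, so the following Pearson correlations of log2(TPM + 1) are descriptions. Nanog went with Nr5a2 (r = 0.974) and Esrrb (0.948), and Zfp42 with Nr0b1 (0.932). Tfcp2l1 had 0.478 with Nanog and 0.465 with Esrrb, and the lowest value of all 36 pairs, 0.107, was that of Tfcp2l1 and Tbx3. The genes outside the 9 with the profile most like their mean were Zscan10 (0.967), Rhpn2 (0.966), Mkrn1 (0.959), Tfap2c (0.958), BC052040 (0.958), Hes3 (0.952), Adarb2 (0.943) and Pced1b (0.942). For single factors the closest genes were Foxj1 for Nanog (0.977), En2 for Esrrb (0.984), Slc22a23 for Tfcp2l1 (0.993), Mkrn1 for Zfp42 (0.974), Zmat4 for Nr0b1 (0.959), Smpd3 for Klf2 (0.877), Zfp750 for Klf5 (0.949), Ube4b for Tbx3 (0.816) and Wnt8a for Nr5a2 (0.989).

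The genes lie at these positions of GRCm38: Nanog (ENSMUSG00000012396) on chromosome 6 from 122707489 to 122714633, Esrrb (ENSMUSG00000021255) on chromosome 12 from 86361117 to 86521628, Tfcp2l1 (ENSMUSG00000026380) on chromosome 1 from 118627945 to 118685168, Zfp42 (ENSMUSG00000051176) on chromosome 8 from 43295063 to 43306980, and Nr0b1 (ENSMUSG00000025056) on chromosome X from 86191764 to 86195947. Klf2 (ENSMUSG00000055148) lies on chromosome 8 from 72319033 to 72321656, Klf5 (ENSMUSG00000005148) on chromosome 14 from 99298691 to 99315036, Tbx3 (ENSMUSG00000018604) on chromosome 5 from 119670669 to 119684724, and Nr5a2 (ENSMUSG00000026398) on chromosome 1 from 136842571 to 136960448. Reads shared with near-identical sequence elsewhere were split by the counting program: the expected count was not a whole number in 16 of 20 libraries for Nanog, 14 for Tfcp2l1, 9 for Tbx3 and 8 for Zfp42, so these counts carry that uncertainty. For Esrrb, Nr0b1 and Klf2 the count was whole in every library. The transcript length behind TPM was estimated in each library. It ranged from 1988 to 4202 bases for Esrrb, 3579 to 4870 for Tbx3 and 676 to 1347 for Pou5f1. TPM ratios of these genes also rest on that estimate, which the intervals do not cover.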

How the data were processed

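RNA-seq libraries of 20 samples were used, 1 for each arm and day. Per the file headers, the deposited per-gene tables hold RSEM expected counts and TPM; the submitters' processing notes name RSEM 1.2.4 and mm10. The authors' series table holds whole-number scores, which give the mESC and MEF libraries (RSEM 1.1.21, mm9, per the submitters' processing notes); how the scores were scaled is not given in the sources used here. Of 24130 identifiers, 12897 took symbols from the series table and 10788 from the reference annotation.

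Expected counts were rounded and tested with edgeR 4.0.16 in R 4.3.3 (TMM, expression filter by arm, robust quasi-likelihood fit, Benjamini-Hochberg over all genes tested, threshold 0.05). Contrasts between arms had day as a block, and courses had a line over day for each arm. With 1 library per arm and day, p-values measure variation between days, since no replicate cultures enter. The omission fits had 3 residual degrees of freedom and the course fit 8. Alternatives were DESeq2 1.42.0, limma 3.58.1 on log2(TPM + 1), DESeq2 size factors, no filter, removal of the GC trend, and each library left out; leaving out OSK day 0 and GFP day 1 was chosen after seeing the data. The scripts were tested on simulated data. The members and lists were chosen with earlier results of these data known. All 9 genes were named in every comparison, and of each list up to 3 genes per direction with the smallest p. Promoter windows came from RefSeq (GRCm38.p6).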

Additional observations from a re-analysis of the deposited data

How the results depend on the processing

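With 1 library per arm and day, each call rests on few values, and leaving out 1 library moved most counts. The calls of the 9 genes ranged from 0 to 5 for OSK against GFP (933 to 6010 of all genes), 2 to 5 for the OvSvK course (189 to 2651), 4 to 6 for the OSK course (2908 to 6845), 0 to 0 for the difference of the courses (0 to 14), 0 to 6 without bFGF against OSK (9 to 3782), 0 to 3 without vitamin C (3 to 1381), 0 to 4 without GSK3 inhibitors (5 to 4536), 0 to 4 for GSK3 inhibitors against bFGF (6 to 1534), 0 to 5 for vitamin C against bFGF (0 to 2355) and 0 to 2 for GSK3 inhibitors against vitamin C (220 to 3580). The cause was not tested. For OSK against GFP, 3 of the 9 genes were called with no filter (4292 genes in all), 5 by DESeq2 (5644) and 3 by limma (4439), against 1 (3895). All genes called in the OvSvK course numbered 2471 by DESeq2 and 2299 with the GC trend removed, against 1426; with OSK day 0 and GFP day 1 left out they numbered 3163, and 3688 with the GC trend removed too. In the OSK course those last settings gave 3498 and 3308 against 6298. The difference of the courses had 10 genes with DESeq2 size factors, 402 by DESeq2, 129 by limma, 20 with the GC trend removed, and 15 and 45 under the last settings, against 0. By limma 3 of the 9 genes were called without bFGF (982 genes in all) and 0 without GSK3 inhibitors (2529 genes in all). It called 0 of the 9 in each comparison between omission arms (208 genes in all for GSK3 inhibitors against bFGF, 576 for vitamin C against bFGF, 1352 for GSK3 inhibitors against vitamin C). Without vitamin C it called 8 genes. Removing the GC trend left 492 genes without bFGF, 8 without vitamin C, 1189 without GSK3 inhibitors, 150 for vitamin C against bFGF and 717 for GSK3 inhibitors against vitamin C, with 0 of the 9 genes in both comparisons with the bFGF arm. Without vitamin C, DESeq2 called 1 of the 9 and 314 genes, and no filter gave 139 genes, against 42. For GSK3 inhibitors against bFGF, DESeq2 called 3 of the 9 and 842 genes in all, no filter 2 and 648, and DESeq2 size factors 0 and 374. Over the libraries left out, the Klf2 slope in OSK ranged from -0.41 to 0.62. It turned from -0.06 to 0.62 without OSK day 0, and to 0.61 and 0.62 with GFP day 1 also left out, without and with the GC trend removed. Of 1296 alternative values for single genes, 1188 kept side and direction, 67 lost the call, 38 gained it and 3 reversed.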
